A study of Mus musculus with 27 samples.

Results

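Cholesterol is built from acetyl-CoA through the mevalonate steps to squalene, and squalene is closed to lanosterol and trimmed to cholesterol. In the liver the pace of this pathway is set largely by SREBP2, the product of Srebf2, a transcription factor held in the endoplasmic reticulum by SCAP and the INSIG proteins when sterols are plentiful and released to the nucleus when they are scarce. Hepatocytes also take cholesterol up from lipoproteins, store it as esters, move it out of lysosomes and export it to bile or to high-density lipoprotein. The genes described here are 31 genes of these processes, taken by GENCODE M21 symbol from a count table of 43346 genes. All 31 were in the table and all 31 passed the filter on low counts. They are 7 genes of the mevalonate steps, 3 of squalene formation and closure, 8 of the steps from lanosterol to cholesterol (together 18 synthesis genes), 4 of SREBP2 control, 6 of uptake, storage and movement in the cell, and 3 of efflux.

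The series surveyed untreated hepatocytes, the parenchymal cells of the liver, from 9 inbred mouse strains, beside histone marks and DNA methylation that are not analysed here. RNA-seq of polyadenylated RNA covered 27 libraries, 3 from each of 129S1/SvImJ, A/J, C57BL/6J, CAST/EiJ, DBA/2J, NOD/ShiLtJ, NZO/HlLtJ, PWK/PhJ and WSB/EiJ, all labelled female, aged 12 weeks and separate biological replicates. No strain is labelled as a control, so each strain was set against the mean of the other 8. These 9 comparisons share libraries and are not independent of each other.

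Library totals ran from 17015956 to 35078511 counts, so that 1 count was worth 0.0253 to 0.0516 CPM (the count scaled to a common library size, with TMM factors of 0.722 to 1.226). The 10 hepatocyte markers checked were all present and summed to between 107362.6 and 319089.1 CPM per library. Markers of other liver cells were far lower: the 10 Kupffer cell markers summed to 35 to 442.1 CPM, the 10 endothelial markers to 62.7 to 808.6 CPM, the 10 stellate cell markers to 31.2 to 189.7 CPM and the 6 bile duct markers to at most 9.64 CPM. The Kupffer sum was highest in C57BL/6J, with a mean of 250.1 CPM, and PWK/PhJ, with 248 CPM, and stood at 66 CPM in CAST/EiJ. In such bulk samples, fewer cells of a type and less RNA per cell cannot be told apart.

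Promoter sequences were available for 24 of the 31 genes in the RefSeq table used (GRCm38.p6, 250 bases before to 50 after each annotated start). Some genes have several starts, so that the 24 genes had 31 windows; a gene was counted as holding a motif if any of its windows did. Because the synthesis genes moved together in these libraries, the windows were searched on both strands for letters known from sterol-regulated promoters. The letters TCACNCCAC, the core of a sterol regulatory element with 1 free base, occurred in 1 of the 24 genes, Hmgcs1, against 1.44% of the 27025 genes in the table. The CCAAT box, bound by NF-Y, occurred in 21 of the 24 genes (87.5%) and in 14 of the 15 synthesis genes with a window, against 41.1% of all genes and 43.2% of the 10486 tested genes with a window. The Sp1 box GGGCGG also occurred in 21 of the 24 genes, against 38.2% of all genes and 65.5% of those tested. Counted by window, CCAAT was in 21 of 31 (67.7%), against 37.4% of all windows and 38% of those of tested genes, and GGGCGG in 24 of 31 (77.4%), against 35.7% and 59.1%. TCACNCCAC includes the fixed form TCACCCCAC, which is what the Hmgcs1 window held and which 0.614% of all genes hold; in the 4 windows printed no match of one motif overlapped a match of another. A match describes letters, not binding. The 4 windows below are those of Hmgcs1, which alone held the TCACNCCAC letters, Msmo1, which had the widest spread between strains, Acat2, the sole one of the 15 synthesis genes with no CCAAT in any window, and Abcg8, of whose 2 annotated starts the one shown lies 110 bases from that of Abcg5. Capitals mark TCACNCCAC and CCAAT, with CCAAT written ATTGG where it lies on the other strand; GGGCGG is left in lower case.
Hmgcs1 (chr13:119690101-119690400, plus strand): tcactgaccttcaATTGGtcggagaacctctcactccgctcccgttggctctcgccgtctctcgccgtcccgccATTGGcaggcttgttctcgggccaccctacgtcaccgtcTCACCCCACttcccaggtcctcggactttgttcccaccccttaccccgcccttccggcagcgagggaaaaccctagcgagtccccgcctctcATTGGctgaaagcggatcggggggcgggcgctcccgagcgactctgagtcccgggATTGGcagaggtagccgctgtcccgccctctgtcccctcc
Msmo1 (chr8:64733529-64733828, minus strand): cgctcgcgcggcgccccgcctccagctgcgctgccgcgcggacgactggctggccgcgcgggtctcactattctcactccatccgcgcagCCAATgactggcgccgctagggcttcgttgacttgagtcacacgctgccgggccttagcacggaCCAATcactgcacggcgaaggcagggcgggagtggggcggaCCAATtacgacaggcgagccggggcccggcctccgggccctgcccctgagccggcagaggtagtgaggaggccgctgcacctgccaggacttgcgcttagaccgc
Acat2 (chr17:12960676-12960975, minus strand): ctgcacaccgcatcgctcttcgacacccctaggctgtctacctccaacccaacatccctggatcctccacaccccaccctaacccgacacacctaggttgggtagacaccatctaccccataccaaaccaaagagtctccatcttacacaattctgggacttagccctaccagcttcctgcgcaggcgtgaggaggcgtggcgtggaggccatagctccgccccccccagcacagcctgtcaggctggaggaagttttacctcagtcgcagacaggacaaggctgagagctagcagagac
Abcg8 (chr17:84682871-84683170, plus strand): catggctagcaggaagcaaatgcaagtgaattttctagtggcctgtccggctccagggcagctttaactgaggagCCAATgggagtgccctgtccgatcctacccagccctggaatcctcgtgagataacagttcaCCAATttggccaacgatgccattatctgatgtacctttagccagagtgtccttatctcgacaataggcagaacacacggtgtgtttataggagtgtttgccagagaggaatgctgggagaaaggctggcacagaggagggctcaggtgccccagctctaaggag

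All 31 genes differed between strains in edgeR's quasi-likelihood test (Benjamini-Hochberg adjusted p under 0.05 over the 14482 genes tested). This was true of 74.2% of all genes tested, so a strain difference as such was common in these hepatocytes. The difference between the highest and the lowest strain had a median of 1.95 on the log2 scale over the 31 genes and 1.18 over all genes tested. In none of the 31 did the 3 libraries of the highest strain overlap the 3 of the lowest, which is a description, since these strains were picked as the ends of the order. CAST/EiJ was the lowest strain for 23 of the 31 genes, NZO/HlLtJ for 6, and PWK/PhJ and WSB/EiJ for 1 each. The plot of all libraries shows CAST/EiJ low through the synthesis genes and 2 WSB/EiJ libraries low beside another that was high.

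**Figure D1:**
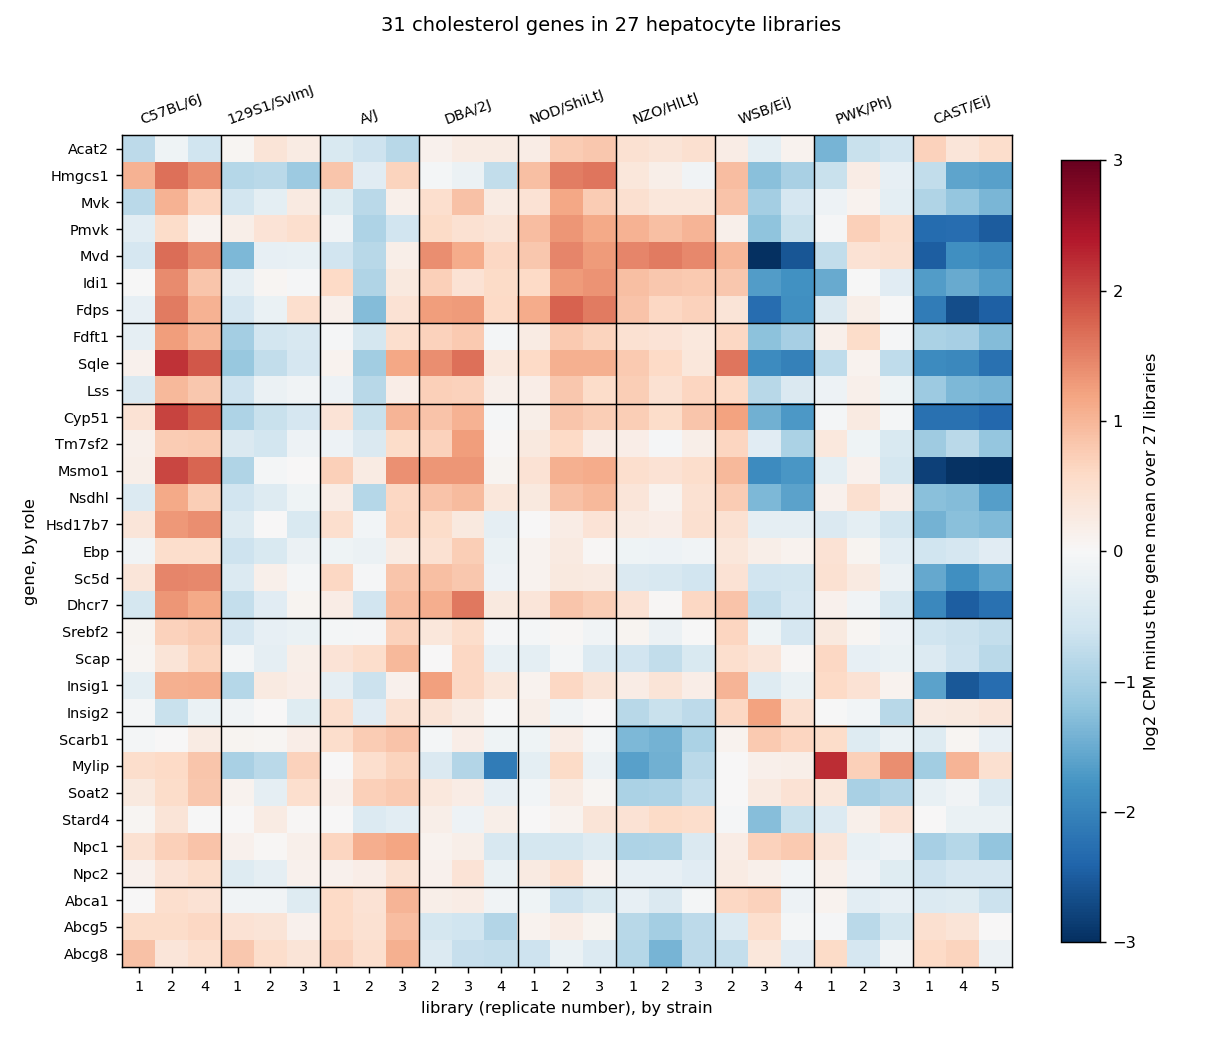
Log2 CPM of the 31 genes (rows, by role) in the 27 libraries (columns, by strain and replicate number), each gene centred on its mean over all libraries; red is above and blue below that mean, with the colour scale clipped at 3 log2 units either side. CAST/EiJ is blue in the synthesis rows except Acat2, NZO/HlLtJ is blue in Insig2, Scarb1, Abcg5 and Abcg8, and WSB/EiJ replicate 2 is red in most synthesis rows where replicates 3 and 4 are blue.

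CAST/EiJ had the lowest strain mean for 17 of the 18 synthesis genes, Acat2 being the exception, though single libraries of other strains, mainly WSB/EiJ replicates 3 and 4, were as low for several of them. Of the 18 synthesis genes, 17 were lower in CAST/EiJ than in the mean of the other strains and Acat2 was higher; over all 31 genes, 23 were lower and 1 higher. Across all genes tested, 17.8% were lower and 20.1% higher in this strain. The median log2 difference of the synthesis genes was -1.78, and that of all genes -0.01. Leaving out any single library left 16 or 17 of the 18 lower, and using the means of the Kupffer cell and endothelial markers as covariates left 17. The mean marker sums in CAST/EiJ were 115961.1 CPM for hepatocytes, the lowest of the 9 strains, and 66 CPM for Kupffer cells, 130.3 for endothelial cells and 59.9 for stellate cells; the part of the hepatocyte and stellate markers in the result was not tested. Whether reads of all strains were aligned to a single reference is not given in the sources used here. A single reference could lower the counts of strains distant from it, such as CAST/EiJ and PWK/PhJ, and this was not tested. With library totals alone as the scaling, 22 of the 31 genes were lower and 4 higher, against 11.3% and 30.8% of all genes. The count of the synthesis genes stayed at 17 and 1. Under this scaling the median log2 difference of all genes ran by strain from -0.35 in WSB/EiJ to 0.31 in NZO/HlLtJ.

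Among the mevalonate genes, Pmvk, which encodes phosphomevalonate kinase (ENSMUSG00000027952, chr3:89454541-89469013), had the smallest p. Listed by replicate number, Pmvk was at 39, 51.9 and 45.6 CPM in NOD/ShiLtJ, 42.3, 38.4 and 41.8 in NZO/HlLtJ, 30.4, 28.3 and 27.1 in DBA/2J, 20, 33.6 and 29.7 in PWK/PhJ and 23.2, 27.1 and 29.2 in 129S1/SvImJ. The remaining strains were at 16.5, 30.1 and 22.3 CPM in C57BL/6J, 22.9, 8.83 and 12.8 in WSB/EiJ, 19.2, 10.8 and 13.7 in A/J and 4.08, 4.17 and 3.56 in CAST/EiJ. Every CAST/EiJ library was below every library of the other strains, and NOD/ShiLtJ and NZO/HlLtJ were at the top. The fitted difference between NOD/ShiLtJ and CAST/EiJ was 3.52 on the log2 scale (11.5-fold; adjusted p = 1.42e-08 for the strain effect in edgeR).

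Farnesyl diphosphate synthase, Fdps, spread further: 276.6 ± 61.5 CPM (SD, n = 3) in NOD/ShiLtJ against 18.6 ± 3.69 in CAST/EiJ. That is a fitted 14.9-fold difference. Fdps shares 26.7% of its exon bases with the gene model Gm43738 on the same strand, so its counts could be split by the authors' counting. Mvd, the decarboxylase that ends the mevalonate steps, was highest in NZO/HlLtJ at 28.5 ± 1.05 CPM and lowest in CAST/EiJ at 2.37 ± 0.521. The lowest single Mvd libraries were WSB/EiJ replicates 3 and 4, at 1.13 and 1.66 CPM. Hmgcs1, the HMG-CoA synthase of the cytosol, stood at 368.1 ± 76.3 CPM in C57BL/6J and 366.5 ± 90.1 in NOD/ShiLtJ. It was at 75.3 ± 7.52 CPM in 129S1/SvImJ and at 59 ± 21.7 in CAST/EiJ. Idi1, an isomerase of the isoprenoid units, had 6.65 times and Mvk, mevalonate kinase, 3.87 times the CAST/EiJ level in NOD/ShiLtJ.

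Acat2, a cytosolic thiolase that makes the acetoacetyl-CoA used by HMG-CoA synthase (chr17:12942890-12960747), was the exception among the synthesis genes. Acat2 was at 72.3, 103.7 and 108 CPM in NOD/ShiLtJ, 100, 79.6 and 89.1 in CAST/EiJ, 84.8, 80.3 and 86.1 in NZO/HlLtJ, 64.4, 80 and 72.9 in 129S1/SvImJ and 67, 72.5 and 73 in DBA/2J. Lower strain means came from 72.4, 50 and 66.7 CPM in WSB/EiJ, 36, 56.1 and 40.9 in C57BL/6J, 45.2, 40 and 34.5 in A/J and 23.3, 38.9 and 41.5 in PWK/PhJ. CAST/EiJ and NOD/ShiLtJ were both high, and A/J, C57BL/6J and PWK/PhJ were low. Against the other strains Acat2 was 0.59 ± 0.14 (SE) higher on the log2 scale in CAST/EiJ (adjusted p = 0.00175, edgeR) and differed by -0.95 ± 0.16 in PWK/PhJ (adjusted p = 5.03e-05). Its counts were not whole numbers in any of the 27 libraries, and reads can be shared with its paralog Acat3, which had 186.2 to 387.1 CPM by strain. The sum of both genes was highest in WSB/EiJ (450.2 ± 55.1 CPM) and lowest in C57BL/6J (230.6 ± 18.9), with CAST/EiJ at 306.3 ± 17.3, so the order of the strains differed between Acat2 alone and the sum. Idi1, Scap and Fdft1 also had counts that were not whole in all 27 libraries and Npc1 in 26. Such counts occurred in 18 libraries for Tm7sf2 and for Fdps, 16 for Lss, 8 for Soat2 and 6 for Msmo1. Reads shared with other genes may enter the values of all these genes. Tm7sf2 shares 12.1% of its exon bases with Vps51 on the same strand.

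The 3 genes from farnesyl diphosphate to lanosterol followed the same order at the bottom. Lss, lanosterol synthase (chr10:76531588-76557138), had the smallest p of them. Its level was 73.9, 61 and 68.9 CPM in NZO/HlLtJ, 32.6, 87.1 and 78 in C57BL/6J, 73.1, 72 and 49.6 in DBA/2J, 51.2, 77.6 and 65.2 in NOD/ShiLtJ and 40, 49.3 and 40.9 in PWK/PhJ. Below these came 66.8, 24.7 and 32.7 CPM in WSB/EiJ, 39.8, 25 and 51.2 in A/J, 28.8, 39.5 and 41.3 in 129S1/SvImJ and 20.9, 17.5 and 16.9 in CAST/EiJ. CAST/EiJ lay below all other libraries. The log2 difference from the highest strain, NZO/HlLtJ, was 1.88 (3.68-fold; adjusted p = 0.00052, edgeR).

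Fdft1, squalene synthase (chr14:63145150-63179578), varied with a similar range. Fdft1 was measured at 82.3, 235.1 and 196.4 CPM in C57BL/6J, 117.6, 169.4 and 157.2 in NOD/ShiLtJ, 158.7, 170.2 and 95.4 in DBA/2J, 135.7, 131.2 and 123.2 in NZO/HlLtJ and 110.2, 144.4 and 96.2 in PWK/PhJ. It was lower, at 96.3, 68.7 and 139.3 CPM in A/J, 150.5, 42.1 and 49.2 in WSB/EiJ, 48.3, 67.3 and 70.9 in 129S1/SvImJ and 50.8, 49.5 and 39.9 in CAST/EiJ. C57BL/6J replicates 2 and 4 were the highest libraries, while its replicate 1 lay within the range of A/J. Fdft1 overlaps Ctsb on the opposite strand over 18.3% of its exon bases, and the library kit named in the labels does not mark strand, so reads there cannot be assigned to either gene with certainty. Sqle, squalene epoxidase, had a larger spread. It stood at 52.7, 219.3 and 176.8 CPM in C57BL/6J, at 147.8, 13 and 11.8 in WSB/EiJ and at 13.1, 12.6 and 10.2 in CAST/EiJ. WSB/EiJ replicates 3 and 4 thus lay at the CAST/EiJ level and replicate 2 near that of C57BL/6J.

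Of the steps after lanosterol, Hsd17b7, a keto-steroid reductase (chr1:169949535-169969241), had the smallest p. Its libraries held 64.3, 123.1 and 132 CPM in C57BL/6J, 70.8, 47.1 and 79 in A/J, 59.9, 57.6 and 69.8 in NZO/HlLtJ, 74, 61.8 and 41.5 in DBA/2J and 50.4, 58.2 and 66.4 in NOD/ShiLtJ. The other strains had 69, 41.5 and 41.9 CPM in WSB/EiJ, 38.2, 50.6 and 36.8 in 129S1/SvImJ, 37.3, 40.9 and 34 in PWK/PhJ and 18.7, 20.9 and 20 in CAST/EiJ. No CAST/EiJ library reached the lowest library of another strain. The difference between C57BL/6J and CAST/EiJ was 2.42 on the log2 scale (adjusted p = 2.69e-06, edgeR).

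Sc5d, the lathosterol desaturase (chr9:42251595-42264256), showed the same ends of the order at a higher level. Sc5d was at 472.4, 1019.6 and 1011.5 CPM in C57BL/6J, 694, 650 and 331.5 in DBA/2J, 572.1, 358.1 and 662.5 in A/J, 397.3, 449.7 and 443.6 in NOD/ShiLtJ and 509.6, 442.8 and 326 in PWK/PhJ. The lower strains had 277.2, 408.4 and 356.9 CPM in 129S1/SvImJ, 502.4, 248.8 and 253 in WSB/EiJ, 273.6, 263.4 and 247.6 in NZO/HlLtJ and 127.8, 104.1 and 123.9 in CAST/EiJ. C57BL/6J replicates 2 and 4 were the highest libraries, and all CAST/EiJ libraries were the lowest. The log2 difference was 2.82 (7.04-fold; adjusted p = 6.76e-06, edgeR).

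Msmo1, the sterol C4-methyl oxidase (chr8:64718139-64733792), had the widest range of all 31 genes. It was at 101.2, 356.8 and 299.9 CPM in C57BL/6J and at 12.8, 11.3 and 11.2 in CAST/EiJ, a fitted 21.4-fold difference. WSB/EiJ replicate 2 was at 176.2 CPM, and replicates 3 and 4 were at 24.2 and 26.4. Cyp51, lanosterol demethylase, ranged over 14.3-fold between C57BL/6J and CAST/EiJ, and Dhcr7, the reductase that ends this branch, over 9.78-fold between DBA/2J and CAST/EiJ. Nsdhl, a sterol dehydrogenase on the X chromosome, ranged over 4.41-fold and Tm7sf2, a sterol reductase, over 3.36-fold. Ebp, the sterol isomerase, also on the X chromosome, moved least of the 18, with 1.81-fold between DBA/2J and CAST/EiJ.

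The 18 genes were correlated across strains and, separately, among libraries of the same strain. Over the 9 strain means of log2 CPM the median Pearson's r of the 153 pairs was 0.85, and 134 pairs exceeded 0.5, against 13.1% of all pairs of genes tested. After the strain mean was subtracted from each of the 27 libraries, the median r was 0.82 and 136 of the 153 pairs exceeded 0.5, against 7.1% of all pairs. The median over all gene pairs was 0 in both cases. These values are a description, since all points share libraries and scaling, and the genes were grouped by known function. With CAST/EiJ left out, which was chosen after seeing the data, the median fell to 0.69 over the remaining strain means and stood at 0.84 within strains. Within strains Fdft1, Sqle, Cyp51 and Msmo1 each had r = 0.98 with the mean of the other synthesis genes. Acat2 had r = -0.17 over strain means and 0.44 within strains, Ebp 0.69 and 0.57; over the strain means without CAST/EiJ they had 0.22 and 0.43. For these values each synthesis gene was left out of the mean it was compared with.

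**Figure D2:**
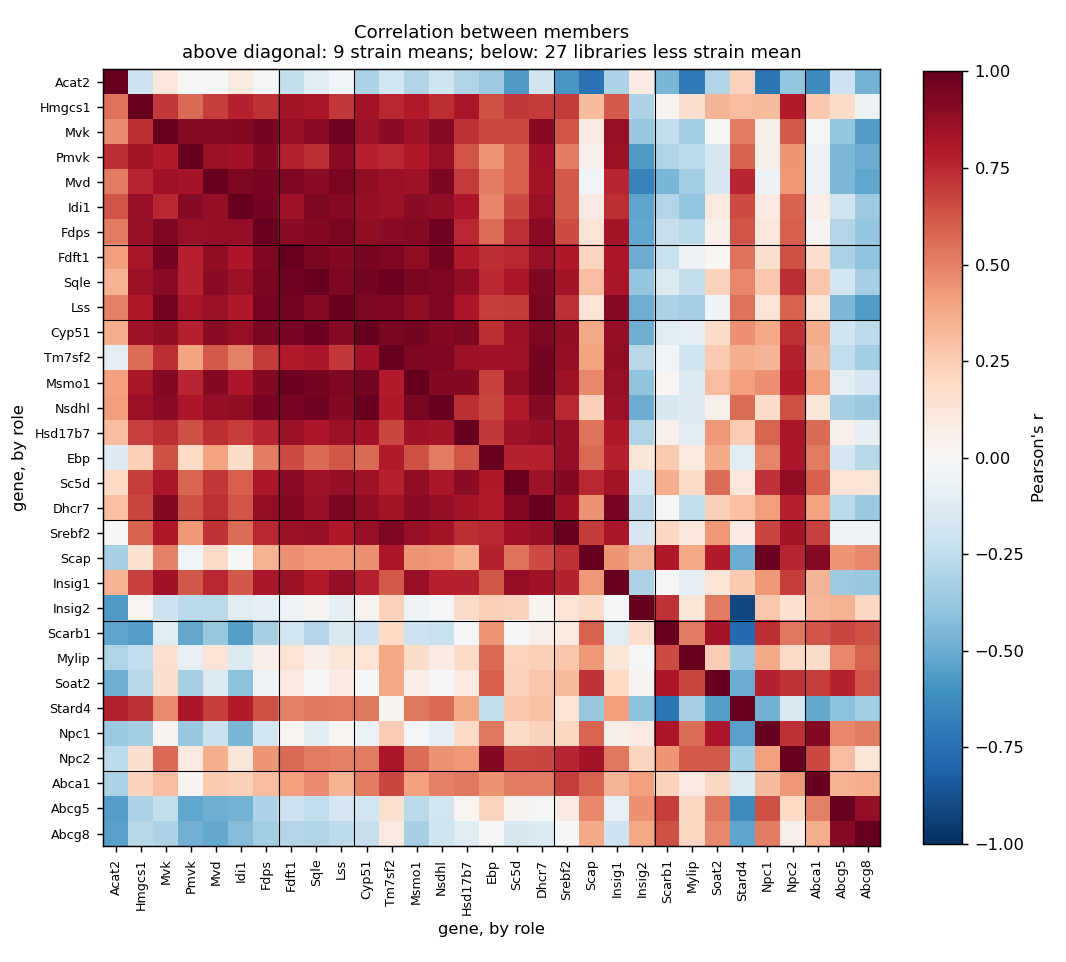
Pearson's r between each pair of the 31 genes, over 9 strain means above the diagonal and over 27 libraries less their strain mean below it; lines separate the role groups. The synthesis genes after Acat2, with Srebf2 and Insig1, form a red block on both sides of the diagonal, and Abcg5 with Abcg8 form a pair outside it.

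The spread within strains was large in WSB/EiJ and C57BL/6J. The mean log2 CPM of the 18 synthesis genes was 6.83 in WSB/EiJ replicate 2 but 4.94 and 5.06 in replicates 3 and 4. It was 6.02 in C57BL/6J replicate 1 and 7.38 and 7.12 in replicates 2 and 4. The 3 CAST/EiJ libraries, at 4.66, 4.54 and 4.47, and the 3 NZO/HlLtJ libraries, at 6.64, 6.5 and 6.58, lay close together. The highest CAST/EiJ library, at 4.66, was below the lowest library of any other strain, WSB/EiJ replicate 3 at 4.94.

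**Figure D3:**
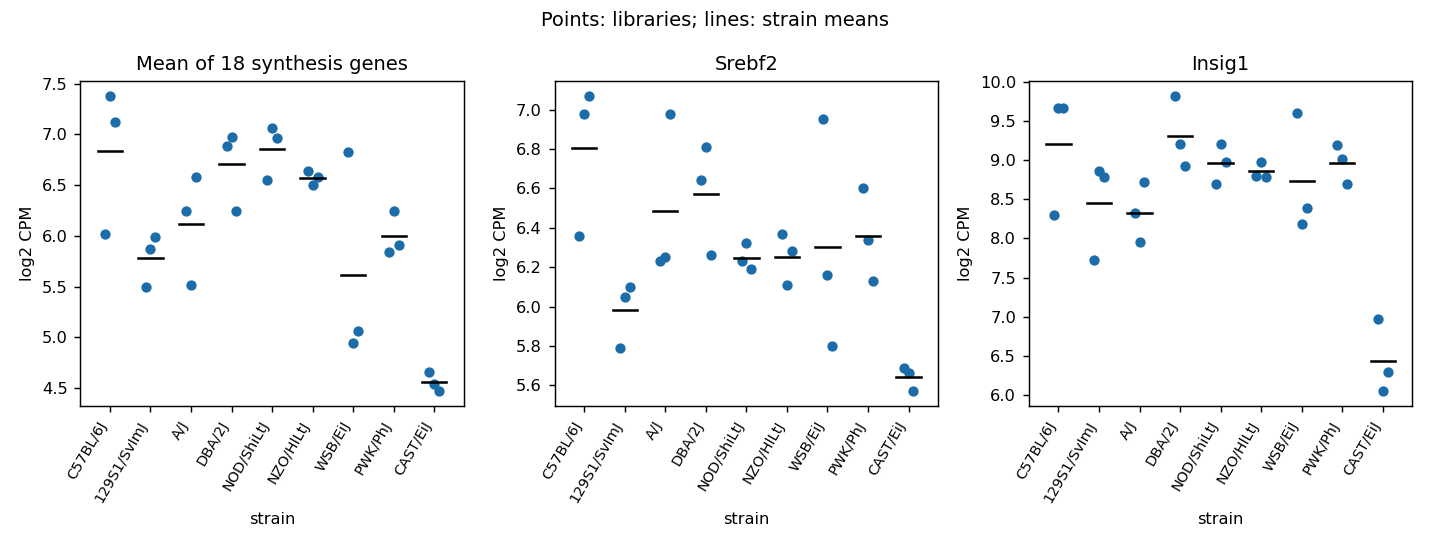
Log2 CPM in each library (points) and the strain mean (lines) for the mean of the 18 synthesis genes, Srebf2 and Insig1, by strain. CAST/EiJ is lowest in all 3 panels, and the WSB/EiJ libraries lie at 6.83, 4.94 and 5.06 for the synthesis mean.

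In C57BL/6J 15 of the 31 genes were higher and 1, Acat2, was lower, against 11.6% and 6.5% of all genes tested. With library totals alone 9 were higher and 1 lower, against 7.43% and 7.6% of all genes under that scaling. The 8 synthesis genes among them were Hmgcs1, Fdft1, Sqle, Cyp51, Msmo1, Hsd17b7, Sc5d and Dhcr7, with log2 differences of 0.83 to 1.62. Srebf2, Insig1, Soat2, Npc1, Npc2, Abcg5 and Abcg8 were higher as well. Without its replicate 1, 15 of the 18 synthesis genes were higher in C57BL/6J, against 11.7% of all genes. Without replicate 2 the count was 4, against 6.56%, and without replicate 4 it was 5, against 6.15%. With the Kupffer cell and endothelial marker means as covariates, 4 of the 31 genes were higher and none was lower in C57BL/6J. The share of all genes called higher in this strain fell as well, to 4.09%, and the median of the synthesis genes was 0.82, against 0.86 without the covariates.

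In NOD/ShiLtJ 6 genes were higher, and all were mevalonate genes: Acat2, Hmgcs1, Mvk, Pmvk, Idi1 and Fdps. Npc1 was the sole gene lower, and the background was 9.2% higher and 5.72% lower. Hmgcs1 differed by 1.47 ± 0.27 (adjusted p = 0.000286, edgeR) and Fdps by 1.57 ± 0.33 (adjusted p = 0.0013) on the log2 scale. The other 12 synthesis genes lay above 0 in NOD/ShiLtJ without passing the threshold. Without NOD/ShiLtJ replicate 2, or without replicate 3, 4 of the 31 genes were called. The shares of all genes were 5.9% higher and 3.03% lower in the first fit and 6.06% and 3.2% in the second. Whether the mevalonate genes differed more than the later steps was not tested.

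DBA/2J had 4 genes higher (Fdps, Tm7sf2, Dhcr7 and Insig1) and 3 lower (Mylip, Abcg5 and Abcg8), against 9.5% and 3.78% of all genes. Without DBA/2J replicate 2, 3 genes were called in DBA/2J, and without replicate 3, 1 gene was. The shares of all genes were 6.45% higher and 2.12% lower in the first fit and 6.2% and 2.03% in the second. In 129S1/SvImJ, 1 gene was higher (Abcg8) and 2 were lower (Hmgcs1 and Ebp), against 10.5% and 7.86%. The shares of all genes in 129S1/SvImJ were 6.03% higher and 3.66% lower without replicate 1, and 6.1% and 3.68% without replicate 2. None of the 31 was called in that strain in either fit. With library totals alone 5 were higher and none lower, against 21.1% and 4.83% of all genes under that scaling, and with upper-quartile factors 1 was higher and 1 lower, against 9.9% and 8.09%. PWK/PhJ had 1 gene higher (Mylip) and 3 lower (Acat2, Hsd17b7 and Abcg5), against 19.4% and 14.8%, so the share in this strain was below the background. Marker sums of endothelial cells (mean 448.1 CPM) and stellate cells (153.5 CPM) were highest in PWK/PhJ, as was the level of Mylip, and the part of the stellate cell markers was not tested. With the Kupffer cell and endothelial covariates 6 genes were lower and none higher, against 14.8% and 14.9% of all genes. The split was 2 higher and 3 lower with library totals alone and 2 and 2 with upper-quartile factors, again below the shares of all genes. Without PWK/PhJ replicate 2, or without replicate 3, 2 genes were called. The shares of all genes were 16% higher and 10.5% lower in the first fit and 17.3% and 11.9% in the second. PWK/PhJ and CAST/EiJ are both known as wild-derived strains; the synthesis mean was 6 ± 0.22 log2 CPM in PWK/PhJ and 4.56 ± 0.1 in CAST/EiJ.

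WSB/EiJ, also wild-derived, had 4 genes higher (Insig2, Scarb1, Npc1 and Abca1) and 2 lower (Pmvk and Stard4), against 15.5% and 9.25%. With library totals alone it had 2 higher and 6 lower, both below the 7.65% and 31% of all genes under that scaling. With median-of-ratios factors it had 4 and 1, against 15.7% and 9.25%. Without WSB/EiJ replicate 3, 2 genes were called, against 10.5% higher and 5.4% lower of all genes. Replicate 2 stood apart from the other WSB/EiJ libraries. Without that library 3 of the 31 genes were higher and 11 lower in WSB/EiJ, against 12% and 6.46% of all genes. Of the 11, 10 were synthesis genes, and the median of the synthesis genes went from -0.17 to -1.11. Leaving out WSB/EiJ replicate 2 also raised the number of synthesis genes that were higher in other strains. It went from 3 to 11 in DBA/2J, from 6 to 13 in NOD/ShiLtJ and from 8 to 14 in C57BL/6J. In NZO/HlLtJ it went from 4 to 7 and in A/J from 0 to 3. The shares of all genes called higher in that fit were, in the same order, 9.27%, 9.22%, 11.2%, 14.4% and 15.4%.

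Srebf2, which encodes the SREBP2 factor itself (ENSMUSG00000022463, chr15:82147181-82205379), had a smaller range between strains than 17 of the 18 synthesis genes, Ebp being the exception. Its level was 82.3, 126.6 and 133.9 CPM in C57BL/6J, 99.7, 112.2 and 76.4 in DBA/2J, 74.9, 75.9 and 126 in A/J, 123.4, 71.3 and 55.6 in WSB/EiJ and 96.6, 81.1 and 70.1 in PWK/PhJ. Lower down came 82.6, 68.8 and 77.8 CPM in NZO/HlLtJ, 74.8, 79.9 and 72.9 in NOD/ShiLtJ, 55.1, 66 and 68.3 in 129S1/SvImJ and 51.6, 50.4 and 47.4 in CAST/EiJ. All 3 CAST/EiJ libraries were below every other library, though 129S1/SvImJ and WSB/EiJ replicate 4 came close. The log2 difference between C57BL/6J and CAST/EiJ was 1.2 (2.29-fold; adjusted p = 0.00586, edgeR). With the Kupffer cell and endothelial covariates this difference was 0.94 and the strain effect missed the threshold, with an adjusted p of 0.0627. Srebf2 had r = 0.79 with the synthesis mean over strains, 0.52 with CAST/EiJ left out, and 0.84 within strains.

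Insig1, an INSIG protein whose gene is itself a known SREBP target (chr5:28071363-28078662), followed the synthesis genes. Insig1 was at 904.8, 589.2 and 482.9 CPM in DBA/2J, 315.5, 808.5 and 816.7 in C57BL/6J, 583.8, 516.7 and 416 in PWK/PhJ, 416.4, 590.6 and 502.4 in NOD/ShiLtJ and 777.2, 292.3 and 335.3 in WSB/EiJ. Next in order were 445.2, 504 and 443.8 CPM in NZO/HlLtJ, 211.4, 463.5 and 443.2 in 129S1/SvImJ, 318.9, 246.4 and 422.5 in A/J and 125.6, 66 and 78.8 in CAST/EiJ. CAST/EiJ was again below all other libraries, by 2.87 on the log2 scale from DBA/2J (7.31-fold; adjusted p = 0.00014, edgeR). Its r with the synthesis mean was 0.88 over strains, 0.67 with CAST/EiJ left out, and 0.84 within strains. Per kilobase of exon it was the most abundant of the 31 genes, with a mean of 145.1 CPM per kb, while Mylip had 1.09.

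Insig2, the second INSIG gene (chr1:121304353-121332589), had another order. It was measured at 438.7, 661 and 398.3 CPM in WSB/EiJ, 341.8, 348 and 368.5 in CAST/EiJ, 403, 224.2 and 391.2 in A/J, 369.6, 338.5 and 282.5 in DBA/2J and 319.4, 265.7 and 285.1 in NOD/ShiLtJ. The lower strains were at 264.2, 286.8 and 222 CPM in 129S1/SvImJ, 283, 266.8 and 159.1 in PWK/PhJ, 273.5, 179.4 and 248.3 in C57BL/6J and 161, 179.8 and 166.3 in NZO/HlLtJ. WSB/EiJ was highest, CAST/EiJ came next and NZO/HlLtJ was at the low end. The log2 difference between WSB/EiJ and NZO/HlLtJ was 1.56 (adjusted p = 0.000158, edgeR). Insig2 had r = -0.46 with the synthesis mean over strains and -0.05 within them. Scap, the escort protein of SREBP, was higher in A/J and lower in CAST/EiJ and NZO/HlLtJ, with a 2.41-fold range.

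**Figure D4:**
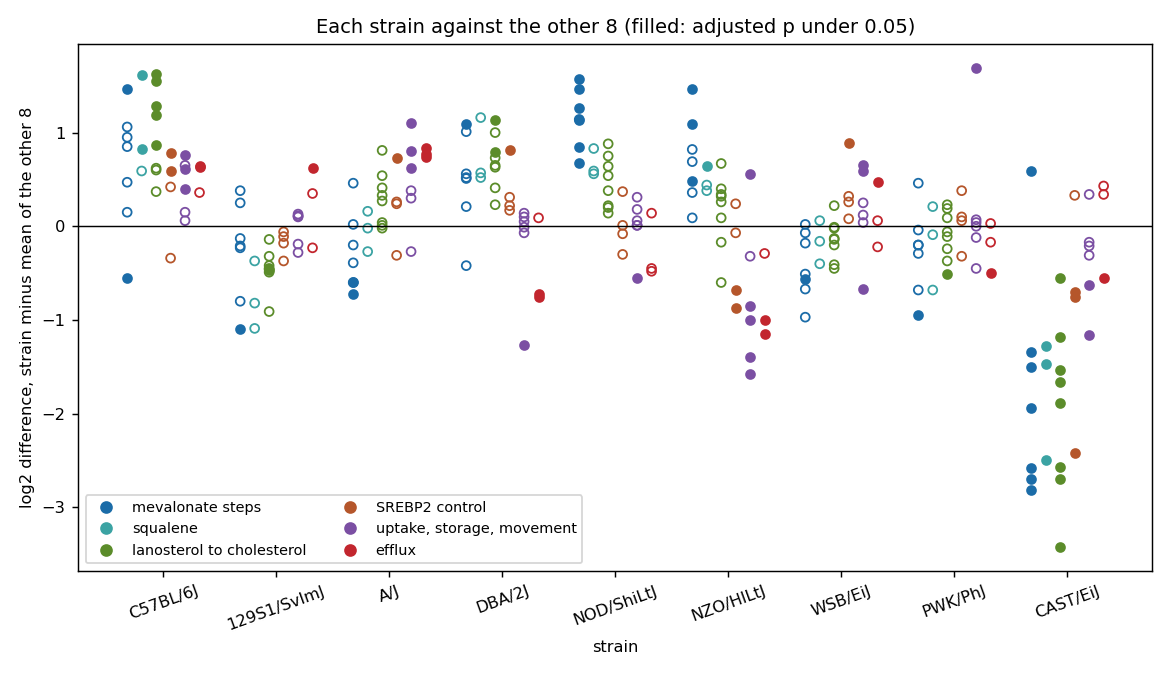
Log2 difference of each strain from the mean of the other 8 for each of the 31 genes, coloured by role; filled points passed an adjusted p of 0.05 in edgeR's quasi-likelihood test and open points did not. In CAST/EiJ 17 filled synthesis points lie below 0 and Acat2 lies above it, while in NZO/HlLtJ the filled synthesis points lie above 0 and the filled efflux points below.

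The genes of uptake, storage and efflux had r between -0.37 (Abcg8) and 0.72 (Npc2) with the synthesis mean over strains. Without CAST/EiJ the values for Npc2, Npc1 and Abca1 went from 0.72 to 0.39, from 0.26 to -0.38 and from 0.22 to -0.25. In A/J 3 of the 6 uptake and storage genes and all 3 efflux genes were higher and none was lower; in NZO/HlLtJ 4 of the 6 were lower and 1 was higher, and 2 of the 3 efflux genes were lower. Over all 31 genes, A/J had 7 higher and 2 lower (15.9% and 11.6% of all genes), so that the total called was near the background, and NZO/HlLtJ had 5 higher and 8 lower (14.8% and 12.9%). In A/J the genes that were higher were Scap, Scarb1, Soat2, Npc1, Abca1, Abcg5 and Abcg8, and those lower were Acat2 and Pmvk. In NZO/HlLtJ the synthesis genes Acat2, Pmvk, Mvd and Lss and the sterol carrier gene Stard4 were higher. Scap, Insig2, Scarb1, Mylip, Soat2, Npc1, Abcg5 and Abcg8 were lower there. With library totals alone the split was 6 higher and 6 lower in A/J, against 6.96% and 28.3% of all genes, and 11 higher and 8 lower in NZO/HlLtJ, against 35.3% and 6.54%; the 11 higher were thus near the background of that scaling and the 8 lower above it. Without A/J replicate 3, 5 of the 31 genes were called in A/J, and without NZO/HlLtJ replicate 2, 8 were called in NZO/HlLtJ. The shares of all genes in these fits were 8.37% higher and 4.9% lower in A/J and 8.25% and 5.77% in NZO/HlLtJ. The marker sums differed in the same strains, with the Kupffer cell sum at a mean of 208.9 CPM in A/J and 69.2 in NZO/HlLtJ the endothelial sum at 187.4 and 84.2, the stellate cell sum at 106 and 41.1, and the hepatocyte sum at 274274.7 and 118187.8. The part of the hepatocyte and stellate markers was not tested. With both marker means as covariates, 7 genes were called in A/J (6 higher) and 8 in NZO/HlLtJ (6 lower). The shares of all genes fell as well, to 10.5% higher and 8.13% lower in A/J and to 7.41% and 5.07% in NZO/HlLtJ.

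Npc1 exports cholesterol from lysosomes together with the product of Npc2. Npc1 was at 236.1, 319.5 and 338.7 CPM in A/J, 205.4, 248.1 and 271.4 in C57BL/6J, 175.7, 243.5 and 259.7 in WSB/EiJ, 165.4, 154.4 and 166.9 in 129S1/SvImJ and 191.7, 128.9 and 135 in PWK/PhJ. Below them came 160.5, 168.8 and 107.6 CPM in DBA/2J, 105, 104.9 and 114.6 in NOD/ShiLtJ, 78.7, 80.8 and 110.6 in NZO/HlLtJ and 75, 82.4 and 65.6 in CAST/EiJ. A/J was highest, followed by C57BL/6J and WSB/EiJ, and CAST/EiJ was lowest, with libraries that overlapped those of NZO/HlLtJ. The difference between A/J and CAST/EiJ was 2 on the log2 scale (4.01-fold; adjusted p = 2.93e-08, edgeR). Npc2 had the same lowest strain and a 1.88-fold range.

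Scarb1 encodes the high-density lipoprotein receptor SR-BI (chr5:125277087-125341094). Scarb1 stood at 371.6, 436.6 and 466.3 CPM in A/J, 275.7, 444.3 and 402.6 in WSB/EiJ, 274.1, 267.4 and 293.6 in 129S1/SvImJ, 246.2, 259.3 and 304.4 in C57BL/6J and 377.9, 197.8 and 223.2 in PWK/PhJ. The other strains were at 234.1, 301 and 248.5 CPM in NOD/ShiLtJ, 248.2, 293.8 and 233.6 in DBA/2J, 197.2, 268.7 and 217.4 in CAST/EiJ and 101, 96.6 and 132.3 in NZO/HlLtJ. All 3 NZO/HlLtJ libraries lay below every other library. The difference between A/J and NZO/HlLtJ was 1.95 on the log2 scale (3.86-fold; adjusted p = 7.37e-06, edgeR). Scarb1 had r = -0.16 with the synthesis mean over strains, and r = 0.83 with Soat2.

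Soat2 esterifies cholesterol for storage and lipoprotein assembly; it ranged from 21.4 CPM in PWK/PhJ replicate 2 to 74 CPM, and its lowest strain mean was that of NZO/HlLtJ. Stard4 moved the other way, at 91.5 ± 4.26 CPM in NZO/HlLtJ and 43.1 ± 18.3 in WSB/EiJ, and had r = -0.78 with Scarb1 over strain means and -0.73 within strains. Mylip, a ubiquitin ligase for lipoprotein receptors, was the least abundant of the 31, from 0.606 to 13.3 CPM, with its highest library in PWK/PhJ replicate 1.

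Abcg5 and Abcg8 encode the paired subunits of the transporter that moves sterols into bile. The genes lie on opposite strands of chromosome 17 (chr17:84658234-84683011 and chr17:84676302-84700333), where their annotated spans overlap. RefSeq gives Abcg8 2 starts; the one whose window is printed above faces the start of Abcg5, and that window overlaps the window of Abcg5. Abcg5 was at 144.9, 132.9 and 183.6 CPM in A/J, 142, 141 and 147.4 in C57BL/6J, 131.3, 125.8 and 106.2 in 129S1/SvImJ, 135.4, 126.8 and 97.9 in CAST/EiJ and 103.6, 112 and 102.3 in NOD/ShiLtJ. The rest had 72, 137.1 and 93.4 CPM in WSB/EiJ, 93.7, 54.7 and 66.9 in PWK/PhJ, 67.3, 63.4 and 52.5 in DBA/2J and 54.1, 47.9 and 55.7 in NZO/HlLtJ. NZO/HlLtJ and DBA/2J formed the low end with PWK/PhJ, and none of their libraries reached those of A/J, C57BL/6J or 129S1/SvImJ. The difference between A/J and NZO/HlLtJ was 1.55 on the log2 scale (2.93-fold; adjusted p = 1.88e-06, edgeR).

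Abcg8 stood at 195.5, 173.4 and 255.8 CPM in A/J, 223, 154.9 and 172.6 in C57BL/6J, 212.2, 175.1 and 158.4 in 129S1/SvImJ, 185, 192.4 and 106.7 in CAST/EiJ and 180.9, 85.7 and 112.3 in PWK/PhJ. Below these lay 74.2, 153.4 and 95.9 CPM in WSB/EiJ, 79, 106.2 and 91.7 in NOD/ShiLtJ, 90.8, 74.8 and 73.4 in DBA/2J and 66.7, 46 and 70.5 in NZO/HlLtJ. The order of the strains was close to that of Abcg5, with a log2 difference of 1.77 between A/J and NZO/HlLtJ (adjusted p = 3.84e-05, edgeR). The pair had r = 0.88 over strain means and 0.91 within strains, and each had a negative r with the synthesis mean (-0.25 and -0.37 over strains). Their annotated exons share 82 bases on opposite strands, 3.02% of the exon bases of Abcg5. Abca1, which loads cholesterol onto apolipoprotein A-I, was highest in A/J at 360.4 ± 79.4 CPM and lowest in CAST/EiJ at 159.5 ± 15.2.

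**Figure D5:**
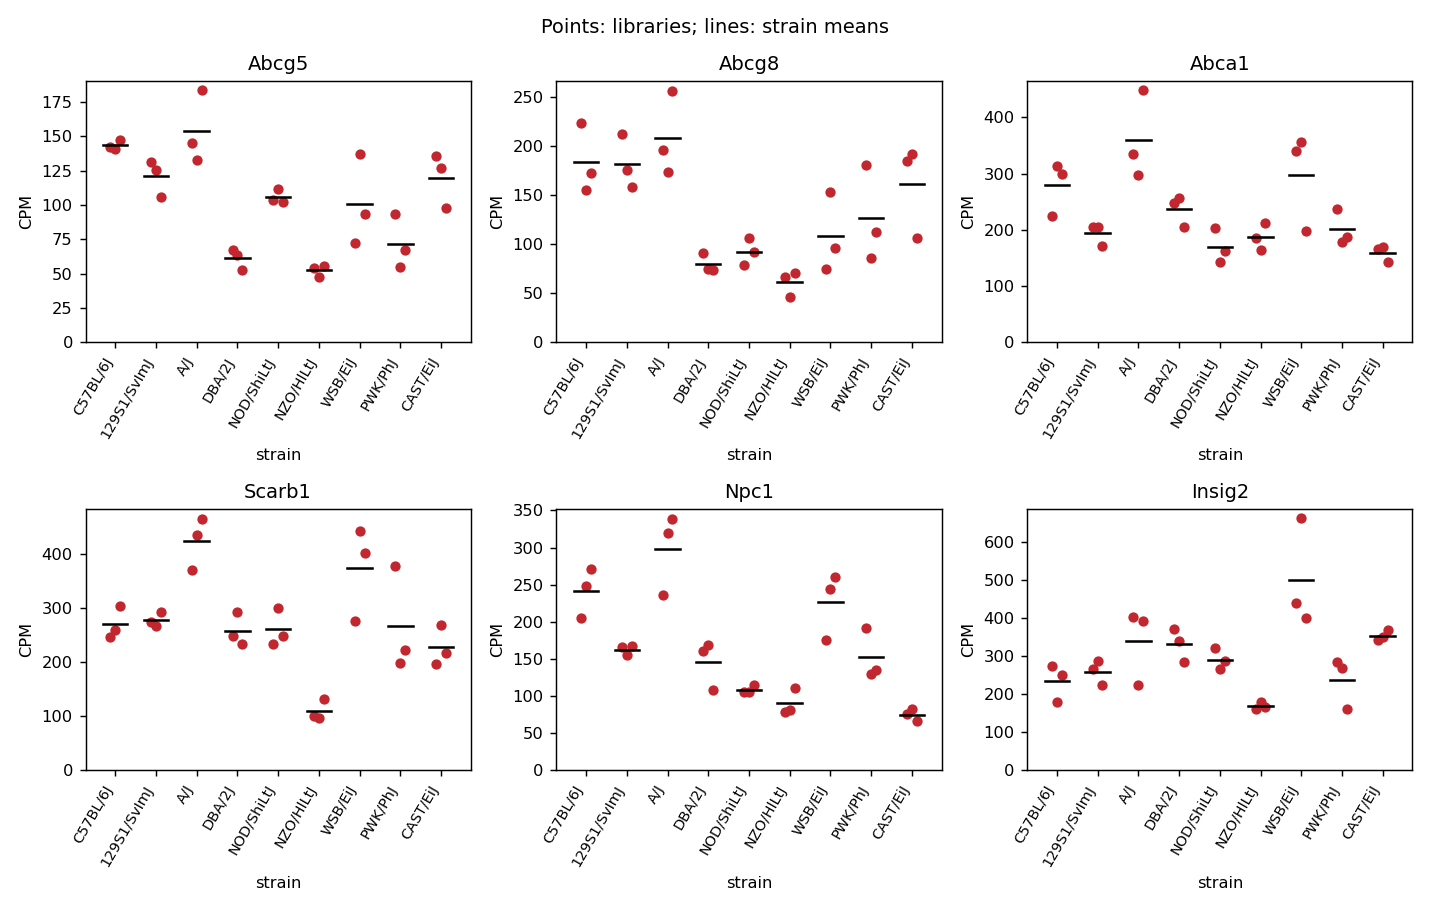
CPM in each library (points) and the strain mean (lines) for 5 transport genes and Insig2, by strain, on linear axes from 0. NZO/HlLtJ is lowest for Abcg5, Abcg8, Scarb1 and Insig2, CAST/EiJ is lowest for Npc1 and Abca1, and A/J is highest in all panels but that of Insig2.

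Of 34 further genes of sterol handling, 26 differed between strains, near the 74.2% of all genes. In CAST/EiJ 12 of them were lower and 3 higher, against 17.8% and 20.1% of all genes, and in A/J 11 were higher and 6 lower, against 15.9% and 11.6%. The 5 with the smallest p were Pdss2, Erlin1, Nr1h3, Cyb5b and Abcg1, and none had its lowest level in CAST/EiJ. Nr1h3, which encodes the oxysterol receptor LXR alpha, was highest in CAST/EiJ at 113.3 ± 11.2 CPM and lowest in A/J at 42.8 ± 3.84. Among 15 genes listed for lipogenesis, the making of fatty acids and stored fat, 12 differed between strains (74.2% of all genes did). Of these 15, 9 were lower and none higher in CAST/EiJ, against 17.8% and 20.1% of all genes. The 5 with the smallest p were Pnpla3, Me1, Gpam, Fads2 and Scd1. Gpam, Fads2 and Scd1 were lowest in CAST/EiJ, Me1 in A/J and Pnpla3 in WSB/EiJ. The mean of the 15 genes had r = 0.69 with the synthesis mean over strains and 0.78 within them.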

How the data were processed

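Polyadenylated RNA of hepatocytes was measured in 27 libraries of 9 strains. The authors deposited 1 table of estimated counts per Ensembl gene; some values are not whole, and they were rounded before testing. Builds GRCm38 and mm10 and the tools FastQC 0.11.5 and DESeq2 are named in the submitters' processing notes; the aligner, the counter and the reference used for each strain are not given in the sources used here. Symbols, exon lengths and coordinates came from GENCODE M21 (GRCm38), which named 42462 of the 43346 genes, and promoter windows from RefSeq (GRCm38.p6).

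Genes were filtered with filterByExpr by strain (14482 kept), scaled by TMM and fitted with edgeR 4.0.16 in R 4.3.3 (glmQLFit, strain as the sole term). An F test of the strain effect and 9 contrasts of a strain against the mean of the other 8 were adjusted by Benjamini-Hochberg over all genes tested, called at 0.05. CPM values are scaled by TMM; log2 CPM used a prior count of 2. Correlations, levels and motif shares were described without a test. The test was checked on simulated data. Values in every library are given for Srebf2, Insig1 and the 2 genes with the smallest p in each role group, and others by means or ranges; for both other lists the 5 genes with the smallest p are named. Members and lists were chosen with earlier results of these data known. Alternatives were other scalings and filters, DESeq2 1.42.0, a GC trend, marker covariates, a replicate block and leaving out each library.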

Additional observations from a re-analysis of the deposited data

How the results depend on the processing

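The strain effect held for all 31 genes with every single library left out, and for 30 with the Kupffer cell and endothelial covariates, where Srebf2 missed the threshold. With library totals as the sole scaling, the members called numbered 5 in 129S1/SvImJ, 10 in C57BL/6J, 11 in NOD/ShiLtJ, 19 in NZO/HlLtJ and 8 in WSB/EiJ, and the majority of calls changed from lower to higher in 129S1/SvImJ and NZO/HlLtJ and from higher to lower in WSB/EiJ; the calls over all genes moved the same way, to 21.1% higher and 4.83% lower in 129S1/SvImJ, 35.3% and 6.54% in NZO/HlLtJ, and 7.65% and 31% in WSB/EiJ. With no filter on low counts they numbered 5 in 129S1/SvImJ, 14 in DBA/2J and 11 in NOD/ShiLtJ. The shares of all genes in that fit were 6.01% higher and 4.79% lower, 6.37% and 2.19%, and 5.78% and 3.21%. With the covariates the members called numbered 1 in 129S1/SvImJ, 4 in C57BL/6J and 8 in NZO/HlLtJ. The shares of all genes were then 6.69% higher and 4.48% lower, 4.09% and 2.87%, and 7.41% and 5.07%. The causes were not tested. Replicate numbers did not pair the libraries: the correlation of their deviations from the strain mean had a median of 0.02 over 76 pairs of equal number (from -0.29 to 0.28), and 7 of 27 libraries correlated best with one of their own number. With the number as a replicate block, 31 genes kept a strain effect, 5 were called in DBA/2J (2 higher, 3 lower) and 16 in CAST/EiJ. Of the 18 synthesis genes, 11 were lower in CAST/EiJ. The shares of all genes under the block were 8.04% higher and 3% lower in DBA/2J and 12% and 10% in CAST/EiJ. Without the block they were 9.5% and 3.78%, and 20.1% and 17.8%. CAST/EiJ replicate 5, the sole library numbered 5, adds nothing to the block fit. The median within-strain r of the synthesis genes was 0.83 under the block. Leaving out each library in turn gave 0 to 4 members called in 129S1/SvImJ, 5 to 12 in A/J, 7 to 23 in C57BL/6J, 23 to 26 in CAST/EiJ, 1 to 14 in DBA/2J, 4 to 14 in NOD/ShiLtJ, 8 to 16 in NZO/HlLtJ, 2 to 5 in PWK/PhJ and 2 to 14 in WSB/EiJ. It gave a median r of 0.84 to 0.86 over strain means and 0.73 to 0.84 within strains. At 1 count, the smallest step, a library resolves 0.0253 to 0.0516 CPM, which limits Mylip most.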

Other observations

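Outside the 18 synthesis genes, 10 of the 14464 other genes tested had a Pearson's r over 0.8 with the synthesis mean within strains (27 libraries less their strain mean), while the median of these genes was 0. The genes were looked up after the values were seen, so the list is a description. The 8 described here ranked 3 to 10 by that r. Among them were Insig1 and Srebf2, both at 0.84, and Erg28, which encodes a scaffold protein of sterol synthesis, at 0.85. The lipogenesis genes Gpam, at 0.83, and Acly, at 0.8, were also among the 8. Also among them was Mmab, an enzyme of vitamin B12 metabolism, at 0.82, whose annotated start lies 242 bases from that of Mvk. Chrna4, a subunit of the nicotinic acetylcholine receptor, had r = 0.87 within strains and 0.89 over the 9 strain means, and the retinol dehydrogenase gene Rdh11 had 0.85 and 0.96. Aacs, which makes acetoacetyl-CoA from ketone bodies, had 0.79 and 0.94, and ranged from 65.4 ± 5.8 CPM (SD, n = 3) in NZO/HlLtJ to 5.81 ± 0.574 in CAST/EiJ. Srebf1, the gene of the related factor SREBP1, had 0.08 and 0.16; of its known targets Fasn had 0.72 and 0.46 and Scd1 0.17 and 0.65. These genes share their libraries with the synthesis mean, and no gene was tested for this likeness.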
